A study of Mus musculus with 4 samples.

Results

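Cell cycle and proliferation genes were followed in microglia, the resident macrophages of the brain. The set holds 40 genes, taken from a list: 13 that act in DNA replication, 21 in mitosis, 4 cyclins of G1 and S phase, and 2 regulators of chromatin and microtubules. A gene was given the value of its brightest probe set among those with exactly 1 gene symbol. In this way 37 of the 40 genes had a value, among 17666 genes kept in all. The probe sets that list Ccnd1 and Mcm7 also list microRNA genes, and Ccnb1 was not matched in the table of probe names used here, so these 3 have no value. Values are log2 of the deposited intensity, called the level. A gene is marked as dim when its mean level over the arrays lies below 7.18, the mean level of the median gene.

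Male C57BL/6J mice were given PBS as the control or OVA as the allergen, and their microglia were taken from the whole brain 1 day after an intranasal challenge. This was done at age P30 and at age P70, which made 4 groups: PBS at P30, OVA at P30, PBS at P70 and OVA at P70. Each group is a single array hybridised with a pool of 4 samples. The sources used here do not describe how the cells were isolated. There were no replicates, so no difference below has a replicate check or a test, and the number of arrays limits the precision. Differences are log2 differences between 2 arrays, and a gene counts as higher or lower from 1.5-fold on (0.58 on the log2 scale). In such bulk samples a larger share of dividing cells and more of a transcript in each dividing cell cannot be told apart.

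A cell that prepares to divide first makes G1 and S phase cyclins, which activate the kinases that start DNA synthesis. Licensing factors load the MCM helicase at replication origins, the sliding clamp PCNA holds the polymerases on DNA, and ribonucleotide reductase, thymidylate synthase and thymidine kinase supply nucleotides. In G2 and mitosis, Cdk1 with the B-type cyclins, the Polo and Aurora kinases, kinesin motors and the spindle checkpoint separate the chromosomes, and the anaphase-promoting complex ends mitosis. Adult microglia are long-lived and renew themselves slowly by division. Replication genes are known targets of E2F transcription factors. Many mitotic genes carry CCAAT boxes, bound by NF-Y, and a cell cycle homology region, through which MuvB complexes keep them low in resting cells and raise them before mitosis.

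Promoter sequences of 6 genes are shown because the genes differed in how they behaved on the arrays. Mki67, Ccnb2 and Kif23 are mitotic genes with their highest level in OVA at P70, Prc1 is a mitotic gene with its lowest levels at P70, and Mcm6 and Pcna are replication genes. Each stretch runs 5′ to 3′ from 150 bases before the start of the gene to 20 bases from it, as RefSeq gives it in the build GRCm38.p6. Capitals mark TTTGAA, a spelling of the cell cycle homology region, CCAAT, and 4 E2F-type spellings (TTTCCCGC, TTTGGCGC, TTTCGCGC and TTTGCCGC), each on either strand. E2F-type spellings can overlap one another, as they do in Mcm6. The stretches lie at chr7:135716360-135716529, minus strand (Mki67), chr9:70421535-70421704, minus strand (Ccnb2), chr9:61946780-61946949, minus strand (Kif23), chr7:80294301-80294470, plus strand (Prc1), chr1:128359686-128359855, minus strand (Mcm6) and chr2:132253161-132253330, minus strand (Pcna).
Mki67: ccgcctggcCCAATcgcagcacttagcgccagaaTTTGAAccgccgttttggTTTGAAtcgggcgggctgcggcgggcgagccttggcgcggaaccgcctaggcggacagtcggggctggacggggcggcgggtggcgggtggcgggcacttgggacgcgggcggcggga
Ccnb2: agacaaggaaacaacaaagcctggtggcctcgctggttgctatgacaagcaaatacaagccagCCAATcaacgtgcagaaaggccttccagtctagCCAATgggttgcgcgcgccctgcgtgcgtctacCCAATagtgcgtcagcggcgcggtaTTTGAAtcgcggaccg
Kif23: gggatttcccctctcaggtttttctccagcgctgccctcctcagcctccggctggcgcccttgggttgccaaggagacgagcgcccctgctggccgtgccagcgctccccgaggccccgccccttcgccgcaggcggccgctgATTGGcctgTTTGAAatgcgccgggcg
Prc1: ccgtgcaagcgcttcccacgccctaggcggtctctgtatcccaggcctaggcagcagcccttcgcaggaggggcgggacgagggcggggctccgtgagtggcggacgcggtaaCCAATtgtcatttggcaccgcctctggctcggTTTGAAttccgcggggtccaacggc
Mcm6: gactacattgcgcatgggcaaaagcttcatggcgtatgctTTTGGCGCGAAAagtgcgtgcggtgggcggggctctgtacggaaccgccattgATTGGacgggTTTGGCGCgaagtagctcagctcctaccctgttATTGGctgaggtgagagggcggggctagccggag
Pcna: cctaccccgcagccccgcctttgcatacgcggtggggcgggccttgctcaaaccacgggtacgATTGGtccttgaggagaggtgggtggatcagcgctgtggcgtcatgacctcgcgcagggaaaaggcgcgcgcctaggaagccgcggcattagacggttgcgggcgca

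RefSeq promoter windows of 300 bases, from 250 before the start to 50 from it, were found for 31 of the 40 genes. They were not found for Ccnd1, Ccne2, Ccna2, Mcm4, Gins2, Aurkb, Tpx2, Kif20a and Stmn1. TTTGAA stood in the windows of 13 of 18 mitosis genes (72.2%) and in those of 1 of 11 replication genes, Mcm2, against 20.2% of all 27025 genes with a window. CCAAT stood in 16 of 18 mitosis genes and 8 of 11 replication genes, against 41.1% of all genes. An E2F-type spelling stood in 5 of 11 replication genes (Mcm3, Mcm5, Mcm6, Mcm7 and Cdc6) and 1 of 18 mitosis genes (Cdk1), against 2.6% of all genes. The mitosis genes with TTTGAA included genes that were higher in OVA at P70 (Mki67 and Kif23) and genes that were near the same level on all 4 arrays (Cdc20 and Cenpf). A match of letters is a description and not a binding site, and the arrays give no binding data.

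The isolates carried a strong microglial signal on every array. All 14 microglial markers with a value lay at or above the median gene on each array, Cx3cr1 at 18.19 to 18.39 and P2ry12 at 13.28 to 15.65. Neutrophil and monocyte markers differed between the ages. The 7 B lineage markers had summed intensities of 939 to 1103 over the arrays and the 6 erythroid markers of 604 to 718. Of the 8 T and NK cell markers, 7 had a negative P70 minus P30 difference in each treatment. The other, Klrd1, was 1.65 higher in PBS and 2.18 in OVA. The 13 neutrophil and precursor markers had a summed intensity of 70723 (PBS) and 23159 (OVA) at P30, and of 886895 and 754513 at P70, with 9 of 13 at or above the median gene on every array. Elane, Mpo, Prtn3 and Ctsg, which mark early neutrophil precursors, were below the median gene on all 4 arrays. The 9 above it on every array included Ngp, Camp and Ltf, all higher at P70 in both treatments. Camp was at 11.67 and 10.36 at P30 (PBS, then OVA) and at 16.99 and 17.13 at P70. The maturation stage of these cells was not tested. The 6 monocyte markers summed to 1915 and 2045 at P30 and to 21602 and 24272 at P70, and the 8 border-associated macrophage markers to 2348 and 2026 at P30, 3328 in PBS at P70 and 9083 in OVA at P70. None of the 7 markers of neural progenitors and neurons reached the median gene on any array. A tilt with the level also separated the ages: genes at or above the median gene had a median P70 minus P30 difference of 0.25 in PBS and 0.38 in OVA, and dim genes one of -0.16 and -0.25.

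Most of the cell cycle genes were dim. Of the 37 with a value, 24 had a mean level below the median gene, 15 of them among the 20 mitosis genes, 6 among the 12 replication genes and all 3 cyclins of G1 and S phase. For 18 genes the level stayed below the median gene on every array, and for 10 it lay at or above it on every array. Ccnb2 (mean 7.21) lay just above the mark and Ube2c (mean 7.18) just below it. The brightest gene was Pcna, with a mean level of 11.83, followed by Tyms (9.61), Hmgb2 (9.55), Stmn1 (9.15) and Mki67 (8.07). Pcna, Tyms and Stmn1 have pseudogene copies in the RefSeq table, and a further probe set is shared by Hmgb2 and the pseudogene Gm10075, so the signals of these 4 genes are uncertain. Across the arrays the median member stood at 6.78 and 6.79 at P30 (PBS, then OVA) and at 6.97 and 7.37 at P70, and 11, 10, 15 and 19 members reached the median gene. The 12 genes that stayed within 0.3 over all 4 arrays included the checkpoint genes Bub1 (6.16 to 6.29) and Bub1b (6.17 to 6.33), the kinetochore genes Cenpe (5.80 to 5.98) and Cenpf (6.36 to 6.57), Aurkb (6.92 to 7.04), and the helicase subunit Mcm2 (6.58 to 6.68). The dimmest value of all was that of Rrm2 in PBS at P30, 5.67. No member came near the upper limit of the arrays, the highest member value being 12.51 against 19.93.

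**Figure D1:**
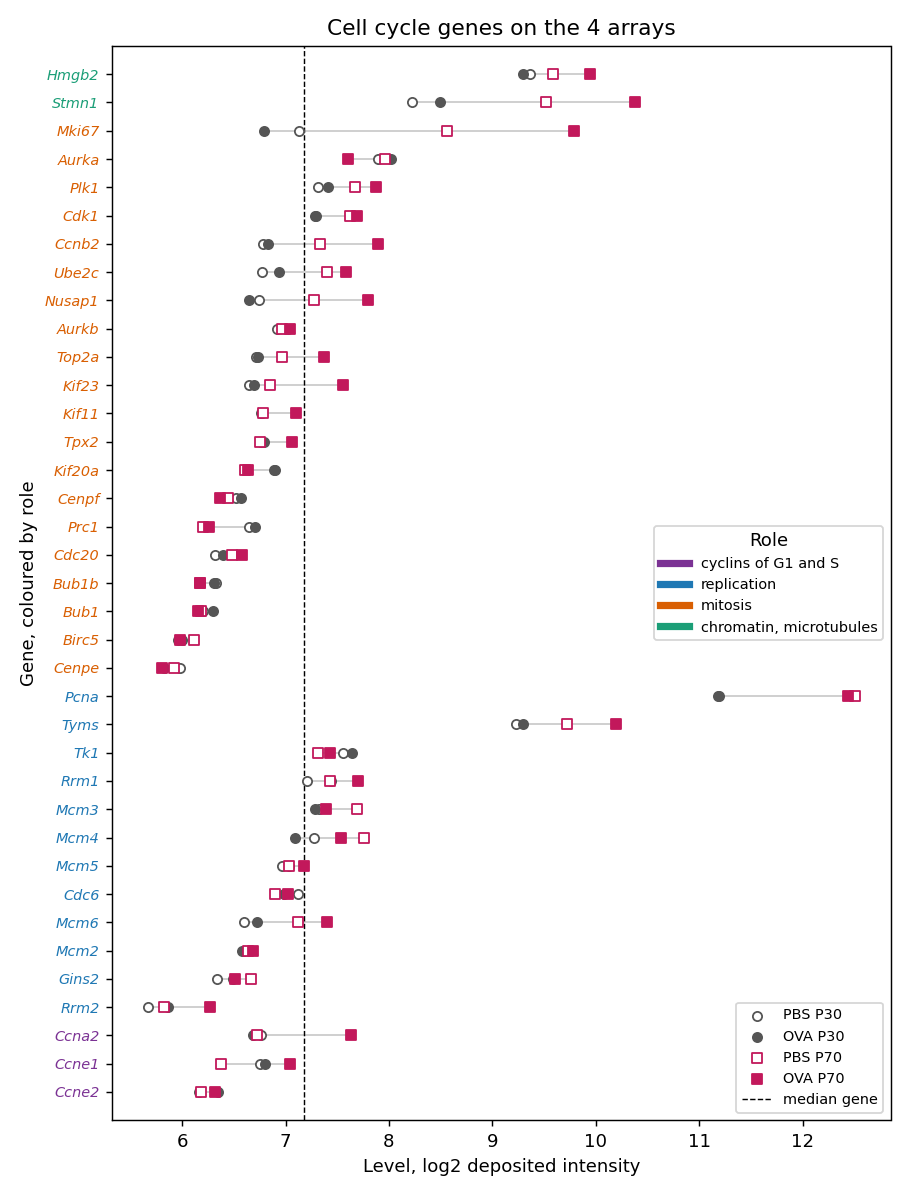
Level of each of the 37 cell cycle genes (rows, coloured by role) on the 4 arrays, in log2 deposited intensity; circles are P30, squares P70, open symbols PBS and filled symbols OVA, and the dashed line is the median gene at 7.18. Mki67 spans from 6.79 in OVA at P30 to 9.79 in OVA at P70, while most other mitosis genes stay near or left of the line.

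The comparison of OVA with PBS at P30 asked how the allergy group stood against its control at the younger age. None of the 37 genes was at least 1.5-fold higher or lower in OVA, where 0.572% of all genes were higher and 0.634% lower. The median difference of the members was 0.046, against 0.0096 over all genes. The 36 genes other than Mki67 differed by less than 0.3 in either direction. Mki67, whose protein coats mitotic chromosomes and is the standard marker of proliferating cells, was at 7.13 in PBS and 6.79 in OVA, a difference of -0.33, with both levels below the median gene. Stmn1, which encodes the microtubule-destabilising protein stathmin, was at 8.22 in PBS and 8.50 in OVA (0.28), and Rrm1, the large subunit of ribonucleotide reductase, at 7.21 and 7.44 (0.23). The replication genes had a median difference of 0.069 and the mitosis genes one of 0.045. Of the neutrophil markers, 7 of 13 were at least 1.5-fold lower in OVA at this age, and the part of these cells in the members' levels was not tested.

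The comparison at P70 asked the same in the older mice, and here several genes were higher in OVA. Mki67 stood 2.34-fold higher, the S and G2 phase cyclin gene Ccna2 1.87-fold, Stmn1 1.82-fold, Kif23, a kinesin of the central spindle that is needed for cytokinesis, 1.64-fold, and Ccne1, the cyclin that drives entry into S phase, 1.59-fold. These were 5 of 37 genes, where 2.51% of all genes were at least 1.5-fold higher, and none was at least 1.5-fold lower, where 1.22% of all genes were. Of the 13 members at or above the median gene 2 were higher (4.04% of such genes), and of the 24 dim members 3 were (0.974% of such genes). Mki67, 1 of these 2, reached the median gene on the P70 arrays alone. The 3 dim members, Ccna2, Kif23 and Ccne1, had mean levels of 6.95, 6.94 and 6.74. The share among dim genes was not matched to these levels. The median difference of the members was 0.13, against 0.0062 over all genes.

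Mki67 was at 7.13 (PBS) and 6.79 (OVA) at P30, and at 8.56 (PBS) and 9.79 (OVA) at P70. Both P70 levels thus lay above both P30 levels, and it stood at the 47.5th percentile of all genes in PBS at P30 and at the 86.7th in OVA at P70. Stmn1 was at 8.22, 8.50, 9.51 and 10.38 on the arrays in the same order. It too had both P70 levels above both P30 levels, with OVA above PBS at each age. Ccna2 was at 6.76, 6.69, 6.72 and 7.63, so that the first 3 arrays lay within 0.1 of each other and below the median gene, and OVA at P70 alone stood above it. Kif23, at 6.65, 6.70, 6.85 and 7.56, likewise stood above the median gene in OVA at P70 alone. Ccne1 was at 6.75, 6.80, 6.38 and 7.04, below the median gene throughout, so that the size of its difference is uncertain. Its lowest and its highest level were the PBS and the OVA array of P70.

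Of the mitosis genes under the 1.5-fold mark in OVA at P70, 2 lay close to it. Ccnb2, a B-type cyclin that activates Cdk1, was at 7.33 in PBS and 7.89 in OVA (0.56), and Nusap1, a protein that bundles spindle microtubules, at 7.27 and 7.80 (0.52). Further from the mark, Top2a, the topoisomerase that untangles chromosomes before they separate, was at 6.97 and 7.37 (0.40), Kif11, the motor that pushes the spindle poles apart, at 6.78 and 7.10 (0.32), and Tpx2, which activates Aurora A on the spindle, at 6.75 and 7.06 (0.31). Among the 4 kinase genes Cdk1, Plk1, Aurkb and Aurka, OVA minus PBS was 0.07 for Cdk1, 0.20 for Plk1, 0.07 for Aurkb and -0.36 for Aurka, the lowest difference of any member. Birc5, which encodes survivin, the partner of Aurora B, stayed between 5.96 and 6.12 on all 4 arrays. The spindle checkpoint kinase gene Bub1 and its relative Bub1b differed by -0.03 and 0.00, Cdc20, the activator of the anaphase-promoting complex, by 0.09, and Ube2c, the ubiquitin-conjugating enzyme of that complex, by 0.18. Cenpe and Cenpf, of the kinetochore, differed by -0.12 and -0.07, and Kif20a and Prc1, of the central spindle, by 0.03 and 0.06.

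Replication genes showed no difference of 1.5-fold at P70 in either direction. Among the MCM helicase subunits, OVA minus PBS was 0.28 for Mcm6, 0.14 for Mcm5, 0.05 for Mcm2, -0.23 for Mcm4 and -0.30 for Mcm3. The licensing factor gene Cdc6 differed by 0.12, Gins2, of the active helicase, by -0.15, and Pcna, at 12.51 in PBS and 12.44 in OVA, by -0.07. The enzymes of nucleotide supply were all on the higher side: Tyms by 0.48, Rrm2 by 0.44, Rrm1 by 0.27 and Tk1 by 0.12. Tyms, thymidylate synthase, went from 9.72 in PBS to 10.20 in OVA, and Rrm2, the small subunit of ribonucleotide reductase, from 5.82 to 6.27, still well below the median gene. Hmgb2, a chromatin protein abundant in dividing cells, was at 9.59 and 9.95 (0.36). Set against each other, the replication genes had a median difference of 0.12 and the mitosis genes one of 0.082, so that the medians lay close together although the mitosis genes reached further, from -0.36 to 1.23 against -0.30 to 0.48. With members at or above the median gene alone, the replication median minus the mitosis median was -0.18. The 5 genes that were 1.5-fold higher stayed so after lowess centring along the level (1.61% of all genes) and after quantile normalization (1.13% of all genes), in which Mki67 stood at 0.96 and Kif23 at 0.61.

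**Figure D2:**
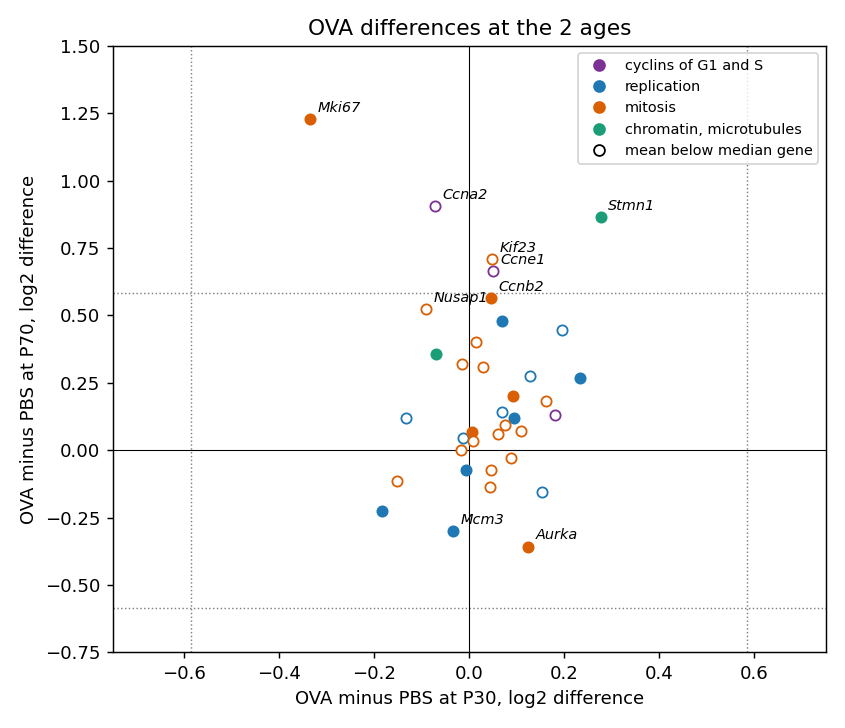
OVA minus PBS at P70 (vertical axis) against OVA minus PBS at P30 (horizontal axis), in log2 units, for each of the 37 cell cycle genes, with open symbols for genes whose mean lies below the median gene and dotted lines at 1.5-fold. All 37 genes lie between the vertical dotted lines, and 5 lie above the upper horizontal one: Mki67, Ccna2, Stmn1, Kif23 and Ccne1.

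Markers of other cells moved with this comparison as well. Of the 8 border-associated macrophage markers, 5 were at least 1.5-fold higher in OVA at P70, and of the 6 monocyte markers 2 (S100a4 and Treml4). The border-associated macrophage markers Cd163 (0.36), Lyve1 (0.20) and Cd209f (-0.03) were not. Over all genes 2.51% were higher and 1.22% lower, and of genes at or above the median gene 4.04% were higher. Of the 13 neutrophil and precursor markers none was higher and 2 were lower. The part of these cells in the higher levels of Mki67, Ccna2, Stmn1 and Kif23 was not tested. No member of the microglial marker list differed by 1.5-fold at P70, P2ry12 standing highest at 0.51.

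**Figure D3:**
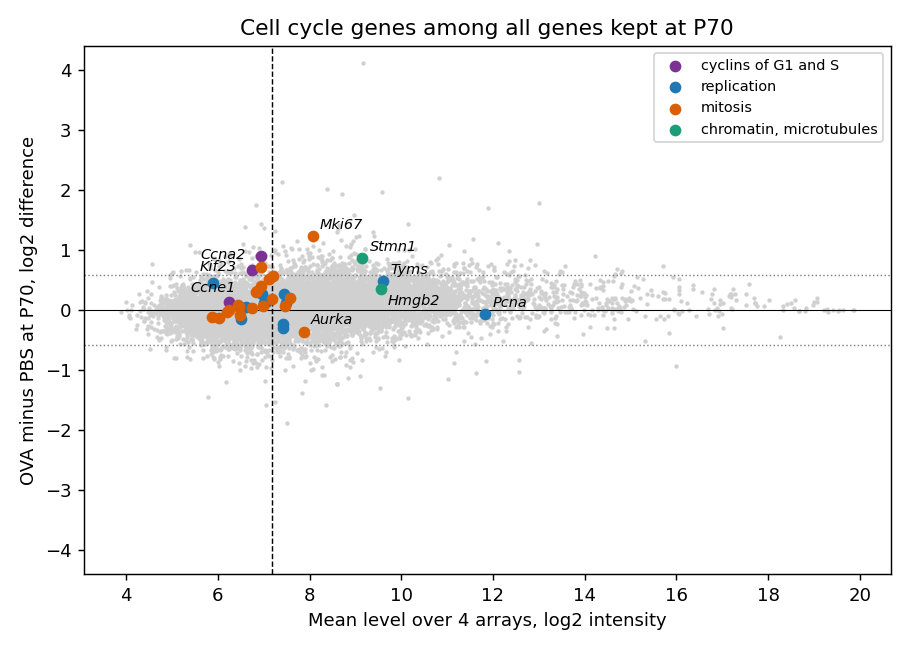
OVA minus PBS at P70 in log2 units against the mean level over the 4 arrays for all 17666 genes kept (grey) and the 37 cell cycle genes (coloured by role), with the dashed line at the median gene and dotted lines at 1.5-fold. Mki67 (1.23) and Stmn1 (0.87) are the members beyond 1.5-fold to the right of the dashed line, and Pcna (-0.07), the brightest member, lies near 0.

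The comparison of P70 with P30 in each treatment set the ages side by side; the 2 ages were on different arrays throughout. In PBS, 4 of 37 genes were at least 1.5-fold higher at P70, where 15.1% of all genes were: Mki67 (2.71-fold), Pcna (2.49-fold), Stmn1 (2.45-fold) and Ube2c (1.54-fold). In OVA, 12 of 37 were, where 20.1% of all genes were. These included the same 4 genes, with Mki67 at an intensity of 111 at P30 and 887 at P70 and Stmn1 3.69-fold higher at P70, and Nusap1 (2.22-fold), Ccnb2 (2.09-fold), Ccna2 (1.92-fold), Tyms (1.87-fold), Kif23 (1.82-fold), Mcm6 (1.59-fold), Hmgb2 (1.57-fold) and Top2a (1.56-fold). No member was at least 1.5-fold lower at P70 in either treatment, where 4.24% of all genes were in PBS and 7.44% in OVA. The lowest values belonged to Prc1, a bundler of antiparallel microtubules, at -0.45 in both treatments, and to Aurka in OVA (-0.41).

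The share of members that were higher at P70 has to be read with the tilt between the ages. Of the 13 members at or above the median gene, 3 were higher in PBS, where 29% of such genes were, and 6 in OVA, where 38.6% were. The mark uses the mean of all 4 arrays. Mki67 (7.13 and 6.79 at P30) and Ccnb2 (6.78 and 6.83) reached the median gene on the P70 arrays alone. Both were counted as higher in OVA, and Mki67 in PBS, so these counts rest in part on the levels that the mark used. Of the 24 dim members, 1 was higher in PBS, where 1.1% of dim genes were, and 6 in OVA, where 1.65% were. The 6 were Ccna2, Kif23, Mcm6, Nusap1, Top2a and Ube2c. Their mean levels, 6.94 to 7.18, lay close to the mark, and all 6 stood above the median gene in OVA at P70. The share among dim genes was not matched to these levels. When each difference was centred along the level by lowess, 6 members were at least 1.5-fold higher in PBS (7.08% of all genes) and 10 in OVA (8.58%). Mki67 kept 1.33 in PBS and 2.67 in OVA and Stmn1 0.92 and 1.18, whereas Pcna went from 1.32 and 1.25 to 0.43 and 0.16, Tyms from 0.90 to 0.13 in OVA, and Hmgb2 from 0.65 to -0.098 in OVA. The 3 genes that lost 1.5-fold in OVA in this way were the brightest members. After quantile normalization 1 member, Aurka, was at least 1.5-fold lower at P70 in OVA (-0.60), where 7.6% of all genes were lower. In percentiles of all genes on an array, Pcna stood between the 96.9th and the 97.4th on all 4 arrays.

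**Figure D4:**
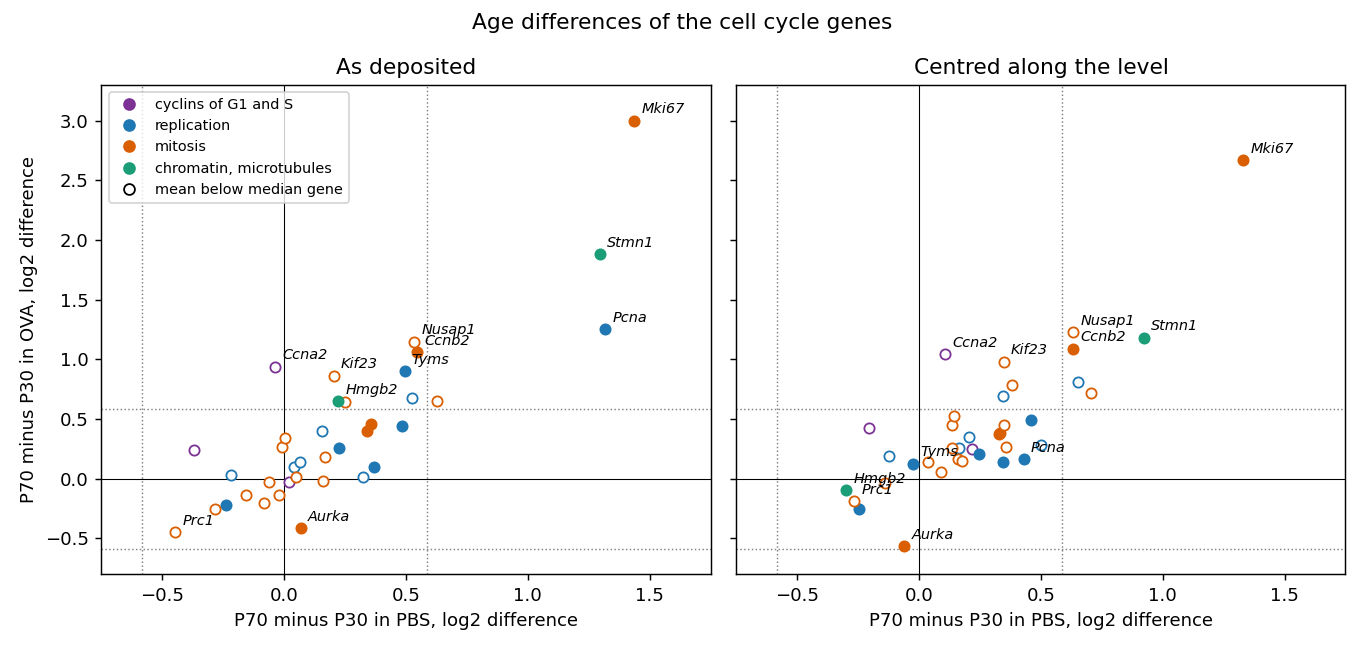
P70 minus P30 in OVA (vertical axis) against P70 minus P30 in PBS (horizontal axis), in log2 units, for the 37 cell cycle genes as deposited (left) and centred along the level by lowess over all genes (right), with dotted lines at 1.5-fold and open symbols for genes whose mean lies below the median gene. Mki67 and Stmn1 stay at the upper right in both panels, while Pcna, Tyms and Hmgb2 lie within the dotted lines in the right panel.

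By role, the replication genes had a median P70 minus P30 difference of 0.27 in PBS and 0.20 in OVA, and the mitosis genes one of 0.11 and 0.23, against -0.029 and -0.040 over all genes. Mcm6 was at 6.60 and 6.73 at P30 (PBS, then OVA) and at 7.12 and 7.40 at P70, with both P70 levels above both P30 levels. Ube2c was at 6.78 and 6.94 at P30 and at 7.40 and 7.59 at P70, which again separated the ages and not the treatments. Nusap1, at 6.74 and 6.65 and then 7.27 and 7.80, and Ccnb2, at 6.78 and 6.83 and then 7.33 and 7.89, combined a higher level at P70 with a further step in OVA. Tk1, the thymidine kinase of S phase, went the other way, at 7.55 and 7.65 at P30 and 7.31 and 7.43 at P70. In all, 22 of 37 members had their highest level in OVA at P70, as had 32.2% of all genes. Among the dim members these were 14 of 24, against 9.83% of dim genes, and among the others 8 of 13, against 54.7%. The share among dim genes was not matched to the members' own levels. The 22 held 12 of the 20 mitosis genes and 6 of the 12 replication genes. Neutrophil and monocyte markers moved with age too: 9 of 13 and 5 of 6 were at least 1.5-fold higher at P70 in PBS, and 9 of 13 and 6 of 6 in OVA. Of the 8 border-associated macrophage markers, 3 were higher in PBS and 5 in OVA. Of the 14 microglial markers, 5 were higher and 2 lower in PBS and 6 higher in OVA, with P2ry12 at 1.84 and 2.36. Over all genes the shares that were higher were 15.1% and 20.1%. The part of other cells in the age differences of the cell cycle genes was not tested.

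A further 132 cell cycle genes outside the list were looked up, of which 127 had a value. At P30 none was at least 1.5-fold away from PBS. At P70, 6 were higher in OVA, where 2.51% of all genes were, and none lower, with a median difference of 0.056 against 0.0062 over all genes. All 6 were among the 66 that were not dim, and of all such genes 4.04% were higher and the median difference was 0.090. Of the 6, Cks1b reached the median gene on the P70 arrays alone and Ccnd2 in OVA at P70 alone. The count among the 66 thus rests in part on the levels that the mark used. Among 47 other mitosis genes the 3 that were higher were Pbk, a mitotic kinase (6.91 in PBS, 7.84 in OVA), Mad2l1, a core protein of the spindle checkpoint (7.45 and 8.16), and Cks1b, a CDK-binding subunit (7.36 and 8.04). Among 41 other replication genes there was none, and the differences ran from -0.52 for Orc4, of the origin recognition complex, to 0.46 for Pola2, of the polymerase that lays down primers. Among 7 G1 kinases and cyclins Cdk6 (8.64 and 9.29) and Ccnd2 (7.16 and 7.80) were higher, and among 10 CDK inhibitor and retinoblastoma family genes Cdkn1a, which encodes the inhibitor p21, was higher as well (8.02 and 8.75). None of 15 transcription factor genes of the cycle and none of 7 genes of the Cdc25 and checkpoint kinase group differed by 1.5-fold at P70, and these 7 were all dim.

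With age, 14 of the 127 genes were at least 1.5-fold higher and 1 lower at P70 in PBS, and 24 higher and none lower in OVA. Over all genes the shares that were higher were 15.1% in PBS and 20.1% in OVA, so these counts do not exceed the background. The shares that were lower were 4.24% and 7.44%. Of the 66 genes that were not dim, 13 were higher in PBS and 22 in OVA, where 29% and 38.6% of such genes were. Cks1b and Ccnd2, among the 22, lay below the median gene on both P30 arrays, so this count too rests in part on the mark. Of the 61 dim genes 1 and 2 were higher, where 1.1% and 1.65% of dim genes were. Pttg1, which encodes securin, was at 8.17 and 8.27 at P30 (PBS, then OVA) and at 9.77 and 9.73 at P70. Smc4, a condensin subunit, was 1.35 higher at P70 in PBS and 1.49 in OVA, and Bub3, a checkpoint protein and the brightest of the other mitosis genes, at 10.11 and 9.99 and then at 11.51 and 11.19. Pttg1 and Bub3 had both P70 levels above both P30 levels. Of the other replication genes, Orc4 was 1.19 higher at P70 in PBS and 0.70 in OVA, and Rfc4, a subunit of the clamp loader, 1.14 and 1.33. Of the CDK genes, Cdk4, the partner of the D-type cyclins, was 1.00 higher in PBS and 1.33 in OVA. These differences were not centred along the level. In percentiles of all genes on an array, Bub3 stood at 93 and 93 at P30 (PBS, then OVA) and at 95 and 94 at P70. In the same order Orc4 stood at 88, 89, 92 and 88, and Cdk4 at 92, 93, 93 and 94. Gins4 stood at 86, 86, 91 and 88, and Ccnh at 91, 91, 94 and 93. Pttg1 (72, 75, 87 and 86), Smc4 (61, 62, 80 and 80) and Rfc4 (59, 56, 76 and 76) stood at higher percentiles at P70. So did Cdk7 (77, 69, 84 and 86).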

How the data were processed

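Microglial RNA of 4 groups was measured on 1 array each. The values deposited for each probe set are linear intensities that the authors had already summarised; per the submitters' processing notes, RMA and Affymetrix Expression Console 1.4.1 were used, with no role given. The scaling between arrays and the genome build are not given in the sources used here. Scanner files were not used here.

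Log2 values were taken with no further normalization (Python 3.11.15, pandas 2.3.3). Of 65956 probe sets, 30604 carried 1 symbol, 2146 several and 33206 none here; 827 symbols were updated through Entrez IDs with a RefSeq table (GRCm38.p6). Probe sets of small RNAs, predicted genes, antigen receptor segments and odorant or vomeronasal receptors (12699) were left out, leaving 17666 genes, 197 of them with more than 1 probe set. All members are described by role; of the other cell cycle lists, up to 3 genes with the largest difference and 2 with the highest level were to be named per list. The members and lists were chosen with earlier results of these data known. Counting was tested on simulated data. Lowess centring used a span of 0.3. Alternatives were median centring, lowess centring, quantile normalization, the mean of a gene's probe sets, probe sets with several symbols added, stricter limits on the level and a 2-fold mark.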

Additional observations from a re-analysis of the deposited data

Results flagged for a closer look

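For 3 genes the OVA minus PBS difference had opposite signs at P30 and P70 and the 2 differences lay at least 1.5-fold apart. Mki67 went from -0.33 at P30 to 1.23 at P70, which are 1.56 apart. Ccna2 went from -0.07 to 0.91 (0.98 apart), and Nusap1 from -0.09 to 0.52 (0.62 apart). At P30 the differences of Ccna2 and Nusap1 were close to 0, both below the median gene. Mki67 also lay below the median gene on both P30 arrays. Over all genes the P30 differences had a standard deviation of 0.196, which is a spread across genes and not the error of 1 gene. Without replicates the sign of the P30 difference is uncertain for all 3 genes. The share of all genes that meet this rule was not counted, so the 3 genes have no background beside them. With 1 array per group the differences between the ages were not tested.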

How the results depend on the processing

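The settings covered the members counted, the normalization, the probe set and the fold. Of the 5 members higher in OVA at P70, all 5 stayed past 1.5-fold under median centring, lowess centring and quantile normalization. Mki67 stood at 0.96 and Stmn1 at 0.62 after quantile normalization. With probe sets of several symbols added, 6 of 39 members were higher in OVA at P70, where 2.51% of all genes were. With members at or above the median gene alone, 2 were higher in OVA at P70 (4.04% of such genes) and 6 at P70 in OVA (38.6%). With those at least 1 unit above it, of which there are 4, the numbers were 1 and 4, and 2 at P70 in PBS. The share of all genes was not counted at that limit. At 2-fold the numbers were 1 in OVA at P70, where 0.289% of all genes were higher, and 5 at P70 in OVA, where 10.1% were. In these settings fewer genes or larger differences are counted by construction. Of the members at or above the median gene, Mki67 and Ccnb2 reached it on the P70 arrays alone. The members' median became 0.42 for OVA at P70, 1.08 at P70 in OVA and 0.89 at P70 in PBS with the strictest members, and 0.46 and 0.37 for age with those at or above the median gene. The replication median minus the mitosis median, 0.036 for OVA at P70, became -0.18 at or above the median gene. For age it went from -0.028 in OVA to -0.15 after quantile normalization and -0.14 after lowess centring, and from 0.16 in PBS to 0.043 and 0.044; the cause was not tested. Quantile normalization made 1 member, Aurka (-0.60), lower at P70 in OVA. Hmgb2 at P70 in OVA turned to -0.14 after quantile normalization, -0.098 after lowess centring and -0.096 with the probe set it shares with a pseudogene. Values of medians were taken as moved at 0.1. No paired analysis was possible because each group holds 1 array. No array could be left out for the same reason, and the strictest members gave no value for replication against mitosis.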
